A study of Mus musculus with 4 samples.

Results

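Trp63, which encodes the transcription factor p63, was examined together with its paralogue Trp73 and 7 genes that belong to its circuit as targets, cofactors or epithelial regulators: Ripk4, Satb1, Fras1, Trim29, Tfap2c, Runx1 and Cbs. The 9 genes were taken by name, and each had 1 transcript cluster (a gene-level group of probes) that carries its symbol alone. They are 9 of 14860 genes with such a cluster, in a table of 23332 clusters. The measurements come from bladder epithelial stem cell cultures of C57BL/6J mice: 2 arrays of colonies from p63 knockout newborns and 2 of colonies from wild-type newborns. All colonies were grown on 3T3 feeder cells, a mouse fibroblast line, before they were picked, so mouse feeder transcripts can be present in both groups. The labels do not name the knockout allele, nor do they say whether the 2 arrays of a group came from separate pups, so the p-values measure the spread between these arrays only. No binding was measured, and the word target below rests on earlier knowledge.

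p63 belongs to the p53 family, whose members bind DNA through closely related domains. It is known as the factor that sets up stratified epithelia, and in the urothelium it marks the basal and intermediate layers beneath the superficial umbrella cells. Its gene is read from different start sites into forms with and without an amino-terminal activation domain, and the form without it is the main one in basal epithelial cells.

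Values are log2 intensities, where a difference of 1 is a change by a factor of 2. Group values are means ± SD of 2 arrays, and a gene was called changed at a limma adjusted p under 0.05 over all 23332 clusters. Correlation over all clusters was 0.98 between the wild-type arrays, 0.93 between the knockout arrays and 0.91 to 0.92 across the groups. Against the epithelial label, the general markers differed in direction: Epcam was at 8.92 and 8.77 in the knockout and at 8.55 and 8.56 in the wild type, Cdh1 at 7.81 and 8.04 and at 9.14 and 8.93, and Krt18 at 10.73 and 10.63 and at 11.30 and 11.32. Over 15 measured basal and general epithelial markers the median difference was -0.93. At an unadjusted limma p under 0.05, 10 were lower and 1 higher, against 7.7% and 14.6% of all clusters. Ptprc, the pan-leukocyte marker, lay between 3.15 and 3.73 (these 4 genes are named after their values were seen). Of 719 olfactory receptor clusters, which serve as silent genes, the 95th percentile over all arrays was 5.08. Probe groups differ in brightness, so that level is only a guide. The olfactory receptor clusters were themselves higher on the knockout arrays by a median of 0.47, and all clusters by a median of 0.12, a shift that quantile normalization reduced to 0.0029. Differences below are as deposited and are to be read against that shift.

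Trp63 was at 4.60 and 4.74 on the knockout arrays and at 8.98 and 8.99 on the wild-type arrays. The wild-type arrays were far above both knockout arrays, and each pair lay close together. Trp63 fell 19.9-fold (log2 difference -4.32, 95% interval -4.77 to -3.86, adjusted p = 0.015), the 22nd largest decrease in the table. The cluster summarises probes along the gene, so neither the forms of p63 nor a residual transcript of the unnamed knockout allele can be told apart by it. Trim29, a tripartite motif protein of basal epithelial cells, was the other gene of the 9 that fell. It was at 4.68 and 4.61 in the knockout and at 7.88 and 7.97 in the wild type, a 9.71-fold decrease (log2 difference -3.28, interval -3.72 to -2.84, adjusted p = 0.029). The knockout levels of both genes were below the guide for silent genes, so both folds may be understated.

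Of the 9 genes, 2 fell, 0 rose and 7 missed the threshold. Among all clusters, 0.527% were called, 0.386% as lower and 0.141% as higher. The smallest absolute log2 difference among these calls was 1.89. A gene or list without a call, here and below, can therefore still hold smaller changes. At an unadjusted p under 0.05, 6 of the 9 were lower and 0 higher, against 7.7% and 14.6% of all clusters. The counts at this threshold in the lists below are to be read against the same shares. The knockout arrays were both below the wild-type arrays for 6 genes and both above for 2, where 20.9% and 36.2% of all clusters had such arrays. The median log2 difference of the 9 genes was -0.92, and that of all clusters was 0.12. Trp63, the gene knocked out, is 1 of the 9, and the 9 were chosen with earlier results of these data known. The counts and the median therefore describe these genes and are no independent test. Leaving out any 1 of the 4 arrays ended both calls, with adjusted p for Trp63 between 0.075 and 0.34, while its difference stayed between -4.39 and -4.24 and that of Trim29 between -3.32 and -3.24.

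**Figure D1:**
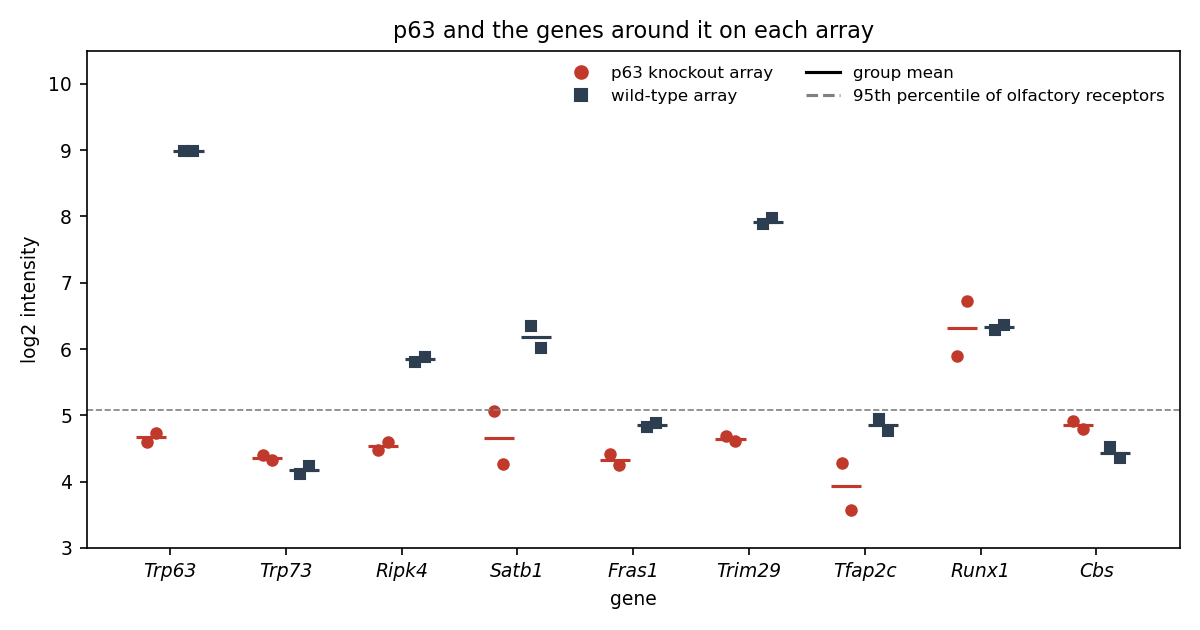
Log2 intensity of the 9 genes on each array, with p63 knockout arrays as circles, wild-type arrays as squares and group means as short lines. The dashed line at 5.08 is the 95th percentile of olfactory receptor clusters; Trp63 and Trim29 stand well above it in the wild type and below it in the knockout.

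Trp73, the p53 family paralogue best known for roles in multiciliated cells and neurons, was low in both groups. It was at 4.40 and 4.32 in the knockout and at 4.11 and 4.23 in the wild type. Both knockout arrays were above both wild-type arrays. The difference of 0.19 (interval -0.26 to 0.64, adjusted p = 0.54) was close to the shift of all clusters, and after cyclic loess normalization it was -0.0039. All 4 values were below the guide for silent genes, so the interval sets no limit on a change of the transcript. The remaining family member, Trp53, had no cluster that carries its symbol alone, so its level could not be read.

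Among the transcription factors, Tfap2c, or AP-2 gamma, acts in early surface ectoderm and epidermis. It was at 4.28 and 3.57 in the knockout and at 4.94 and 4.76 in the wild type. The groups did not overlap, but the knockout arrays differed from each other by 0.71, close to the whole difference of -0.92 (interval -1.73 to -0.11, adjusted p = 0.20). Without knockout array 2 the difference was -0.57, and without knockout array 1 it was -1.28. All 4 values lay below the guide for silent genes. Its paralogue Tfap2a, named after its values were seen, had the opposite sign, at 5.72 and 5.85 in the knockout and at 4.54 and 4.96 in the wild type (log2 difference 1.03, adjusted p = 0.12). Differences of the 3 other AP-2 genes, Tfap2b, Tfap2d and Tfap2e, likewise named after their values were seen, ran from 0.20 to 0.29. In the list of 16 AP-2 genes, cofactors and partners, Foxa1, a pioneer factor of urothelium and other endoderm, fell 5.12-fold (4.44 ± 0.06 against 6.79 ± 0.0088, adjusted p = 0.034), 0 rose and 15 did not pass. Its knockout level was below the guide for silent genes, so this fold too may be understated. The list's median was -0.08.

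Runx1, a core-binding factor of blood formation that is also expressed in hair follicle and other epithelia, had the smallest difference of the 9 genes. It was at 5.89 and 6.72 in the knockout and at 6.29 and 6.36 in the wild type. The knockout arrays lay on either side of the wild-type pair. The difference was -0.02 (interval -0.92 to 0.88, adjusted p = 0.97), and it was 0.39 without knockout array 1 and -0.44 without knockout array 2. The fibroblast and feeder cell markers had mean levels of 7.21 and 7.61 on knockout arrays 1 and 2 and of 7.60 and 7.26 on wild-type arrays 1 and 2. In the knockout pair array 2 was the higher for both that list and Runx1, while in the wild-type pair array 1 was the higher for the list and array 2 for Runx1, and the part of feeder cells in the Runx1 values was not tested. Its paralogue Runx3 and its partner Cbfb, which stabilises RUNX proteins on DNA, had differences of -0.04 and 0.05 (both named after their values were seen). None of 21 measured RUNX family genes, cofactors and partners passed by limma (3 lower and 0 higher at an unadjusted p under 0.05), and the list's median was 0.06. Its largest differences belonged to Ets1 (5.82 ± 0.10 against 7.00 ± 0.13, adjusted p = 0.086) and Ets2 (7.46 ± 0.18 against 8.58 ± 0.14, adjusted p = 0.098), members of the ETS family.

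Satb1, a genome organiser that anchors chromatin loops and that in mouse epidermis acts downstream of p63, was at 5.06 and 4.26 in the knockout and at 6.35 and 6.01 in the wild type. Both knockout arrays were below both wild-type arrays, and the knockout pair spread over 0.80. The knockout pair was also below the guide for silent genes, so the size of the difference may be understated. The log2 difference was -1.52 (interval -2.44 to -0.60, unadjusted p = 0.0097), which did not pass over all clusters (adjusted p = 0.13). It was -1.12 without knockout array 2 and -1.92 without knockout array 1. Satb1 is also abundant in T cells, whose marker Cd3e (named after its values were seen) was at 4.61 ± 0.49 in the knockout and at 4.36 ± 0.32 in the wild type. Both means of Cd3e were below the guide for silent genes. Differences of the 12 measured leukocyte markers ran from -3.29 (Lcp1) to 0.89, with 2 lower and 3 higher at an unadjusted limma p under 0.05. The part of leukocytes in the Satb1 values was not tested. None of 11 measured SATB and chromatin organiser genes passed by limma (4 lower and 1 higher at an unadjusted p under 0.05), with a median of -0.26. Hmga2, an architectural protein of proliferating cells, was at 8.01 ± 0.20 and 7.12 ± 0.50 (adjusted p = 0.21), and Smarca4, the ATPase of the BAF remodelling complex, at 6.94 ± 0.08 and 7.55 ± 0.14 (adjusted p = 0.17).

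Ripk4, a kinase needed for mouse epidermal differentiation and a known p63 target, was at 4.47 and 4.60 in the knockout and at 5.81 and 5.88 in the wild type. The arrays of each group lay within 0.14 of each other and the groups did not overlap. Knockout levels were below the guide for silent genes, so the size of the difference may be understated. The log2 difference was -1.31 (2.48-fold, interval -1.77 to -0.86, unadjusted p = 0.0012). It did not pass over all clusters (adjusted p = 0.073), but it did when clusters below the 25th percentile or below the median of mean level were left out (adjusted p = 0.045 and 0.027). Its relatives had smaller differences, with Ripk3, the necroptosis kinase, at -0.05, Dstyk at -0.52 and Ankk1 at 0.40 (named after their values were seen). Of 17 measured RIP kinases and NF-kappaB adaptors, 0 passed by limma (2 lower and 2 higher at an unadjusted p under 0.05), and the median was -0.05. The inhibitor of apoptosis Birc3 (6.20 ± 0.14 against 6.77 ± 0.08, adjusted p = 0.19) and the kinase gene Prkcb (4.07 ± 0.0061 against 3.43 ± 0.33, adjusted p = 0.22) had the largest differences in the list. Every value of Prkcb and of Ankk1 was below the guide for silent genes, and the olfactory receptor clusters behind that guide had a median difference of 0.47.

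Trim29 belongs to a large family of tripartite motif proteins, many of them ubiquitin ligases. None of 33 other measured TRIM genes passed by limma (4 lower and 5 higher at an unadjusted p under 0.05). Their median was 0.12, the same as that of all clusters, and their differences ran from -1.46 to 1.18. No cluster with an absolute difference under 1.89 was called, so the lack of calls does not show that these genes were unchanged. The largest were those of Trim62 (4.57 ± 0.24 in the knockout, 6.03 ± 0.12 in the wild type, adjusted p = 0.081) and Trim13 (4.06 ± 0.14 and 5.43 ± 0.43, adjusted p = 0.11).

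Fras1, an extracellular matrix protein that tethers epithelium to the underlying mesenchyme in the embryo, was at 4.42 and 4.25 in the knockout and at 4.82 and 4.88 in the wild type. The groups did not overlap, and all values were below the guide for silent genes. The log2 difference was -0.52 (interval -0.98 to -0.05, adjusted p = 0.20). Of the 11 measured genes of the Fraser complex and its ligands, 0 passed by limma (0 lower and 2 higher at an unadjusted p under 0.05), and the median was 0.31. Npnt, the nephronectin ligand of integrin alpha 8, had a difference of 1.27 that did not pass (5.90 ± 0.15 against 4.63 ± 0.21, adjusted p = 0.092), and Fbln2, a fibulin, one of 1.28 (7.78 ± 0.62 against 6.51 ± 0.26, adjusted p = 0.17).

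Cbs, the enzyme that joins homocysteine and serine to cystathionine, was at 4.91 and 4.79 in the knockout and at 4.52 and 4.35 in the wild type. Both knockout arrays were above both wild-type arrays. The log2 difference of 0.42 (interval -0.06 to 0.89, adjusted p = 0.26) did not pass, and it was 0.31 after quantile normalization. The 5084 clusters with a mean level from 4 to 5, which holds that of Cbs, had a median difference of 0.13. All 4 values of Cbs were below the guide for silent genes, and the olfactory receptor clusters behind that guide had a median difference of 0.47. None of 16 measured genes of the methionine cycle and transsulfuration passed by limma, with 3 lower and 2 higher at an unadjusted p under 0.05 and a median of -0.12. Ahcy, which cleaves S-adenosylhomocysteine and so supplies the substrate of Cbs, was at 8.16 and 8.74 in the knockout and at 5.70 and 5.90 in the wild type. This was a 6.28-fold difference that missed the threshold (adjusted p = 0.057). Ahcy passed without clusters below the 25th percentile or below the median (adjusted p = 0.033 and 0.018) and with an intensity trend in the variance prior (0.041). Slc7a11, the cystine importer, was at 5.71 ± 0.44 in the knockout and at 7.28 ± 0.10 in the wild type (adjusted p = 0.097).

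**Figure D2:**
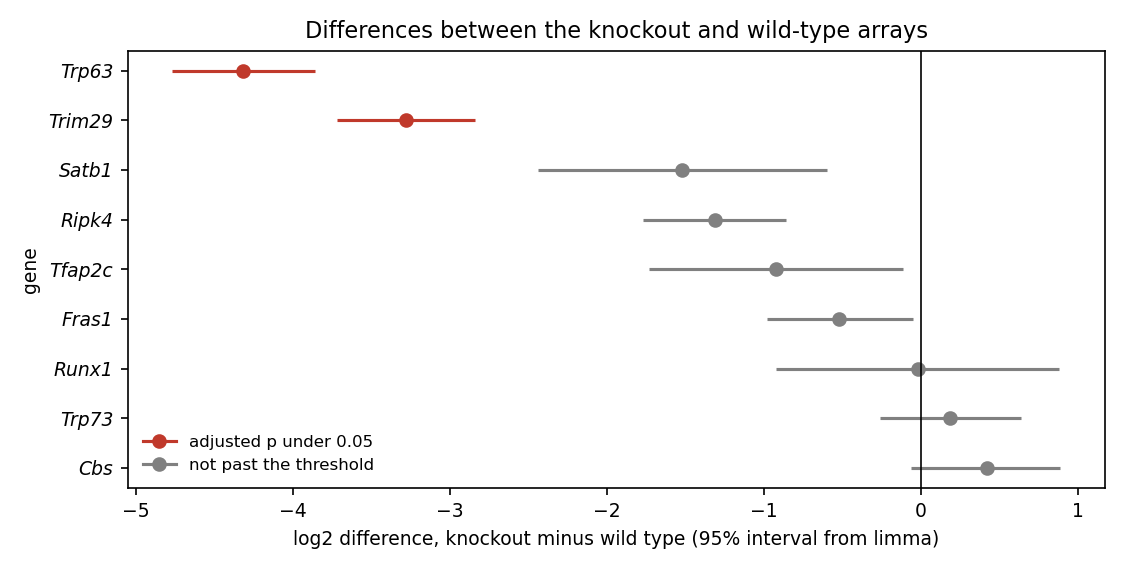
Log2 difference between knockout and wild-type arrays for the 9 genes, with 95% intervals from limma; filled red marks are past the adjusted threshold. Trp63 (-4.32) and Trim29 (-3.28) lie apart from the other 7 genes, whose differences run from -1.52 to 0.42.

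Of 49 measured genes among other known p63 targets, 6 fell, 0 rose and 43 did not pass, and their median was -0.52. Both knockout arrays were below both wild-type arrays for 31 of the 49 and above them for 10, against 20.9% and 36.2% of all clusters. The list was put together with earlier results of these data known. Without clusters below the 25th percentile 11 were called lower, without those below the median 16, and without any 1 array 0. Krt15 and Krt5, keratins of basal cells, fell 76.7-fold and 49.2-fold (adjusted p = 0.029 and 0.015). Krt5 was at 5.02 and 4.77 in the knockout and at 10.43 and 10.60 in the wild type, with no overlap. Krt14, the partner of Krt5 in the basal filament, fell 15.9-fold, the desmosomal cadherin Dsg3 8.97-fold, the differentiation factor Grhl3 8.79-fold and the hemidesmosomal collagen Col17a1 5.44-fold (adjusted p between 0.032 and 0.033). The knockout means of Krt15, Krt5, Dsg3 and Col17a1 were below the guide for silent genes, so these 4 folds may be understated. Nectin1, an adhesion molecule (5.12 ± 0.04 against 6.80 ± 0.0039, adjusted p = 0.053), and Jag1, a Notch ligand (5.05 ± 0.16 against 6.94 ± 0.14, adjusted p = 0.058), were just short of the threshold and are named after their values were seen. At the other end of the list was Cldn1, a tight junction gene that neighbours Trp63 on its chromosome, at 8.21 ± 0.44 in the knockout and at 6.48 ± 0.38 in the wild type (adjusted p = 0.11).

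Markers of the cell types that a bladder culture can hold were read on the same arrays. Among the 15 basal and general epithelial markers, 3 fell, all of them the basal keratins above, and 12 did not pass. Of 13 superficial urothelial markers, 7 fell and 0 rose, with a median of -3.14. By limma at an unadjusted p under 0.05, 11 were lower and 1 higher, and differences ran from -7.84 to 2.10. The 7 include Grhl3 and Foxa1, which are also counted in the lists of targets and of AP-2 genes. In a bulk culture, fewer cells of a type and less RNA per cell cannot be told apart. Mean levels of the endothelial markers were 4.40 and 4.18 in the knockout and at 5.18 and 4.64 in the wild type, those of smooth muscle 5.58 and 5.55 against 5.45 and 4.95, and those of leukocytes 4.33 and 4.19 against 4.50 and 4.34. None of the 14 endothelial, 9 smooth muscle, 12 leukocyte or 22 fibroblast markers passed by limma. At an unadjusted p under 0.05, 4, 0, 2 and 2 of them were lower and 0, 1, 3 and 1 higher. Among all clusters, 7.7% were lower and 14.6% higher at that threshold. The part of these cell types in the results was not tested. In the list of Y-linked genes and Xist, 2 genes were measured, and both were lower at an unadjusted limma p under 0.05. Of these, Eif2s3y fell from 7.77 ± 0.48 to 3.30 ± 0.40 (adjusted p = 0.038). The other, with a difference of -1.92, did not pass. The labels do not give the sex of the pups, so a difference in sex between the groups cannot be told apart from genotype.

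Promoter windows from RefSeq (GRCm38.p6) were available for 4 of the 9 genes (Trp73, Satb1, Runx1 and Cbs, with 10 start sites in all) and for 4 of the 6 targets that fell. The 250 bases before each start were searched on both strands for the p53 family half-site and for its core CATG, for the AP-2 palindrome GCCNNNGGC and for the RUNX core TGTGGT. A half-site can contain the CATG core, but a CATG match need not lie within a half-site. In the Satb1, Krt14 and Col17a1 windows shown it does not. The windows of Satb1, with its outermost start site, and of the 4 targets that fell are shown because they lie at genes with large differences between the groups. Capitals mark the half-site in Krt5 and the CATG core in the other windows, and the Grhl3 window holds neither. All 5 are on the minus strand and read 5′ to 3′ towards the start: Satb1 at chr17:51833291-51833540, Krt5 at chr15:101712906-101713155, Krt14 at chr11:100206031-100206280, Grhl3 at chr4:135573633-135573882 and Col17a1 at chr19:47692043-47692292.
Satb1: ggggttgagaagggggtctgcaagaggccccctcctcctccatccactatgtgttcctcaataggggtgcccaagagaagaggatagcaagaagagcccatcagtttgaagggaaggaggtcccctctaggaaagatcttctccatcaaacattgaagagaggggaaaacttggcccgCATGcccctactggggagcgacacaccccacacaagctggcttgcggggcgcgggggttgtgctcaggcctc
Krt5: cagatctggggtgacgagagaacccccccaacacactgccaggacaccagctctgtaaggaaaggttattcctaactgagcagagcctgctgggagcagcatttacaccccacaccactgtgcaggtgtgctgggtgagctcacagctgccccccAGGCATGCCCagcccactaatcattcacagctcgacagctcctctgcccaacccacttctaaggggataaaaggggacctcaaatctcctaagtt
Krt14: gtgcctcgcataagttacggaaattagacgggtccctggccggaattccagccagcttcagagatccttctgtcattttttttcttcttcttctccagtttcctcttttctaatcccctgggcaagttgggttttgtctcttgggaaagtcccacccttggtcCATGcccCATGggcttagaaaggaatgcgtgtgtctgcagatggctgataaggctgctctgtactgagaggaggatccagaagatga
Grhl3: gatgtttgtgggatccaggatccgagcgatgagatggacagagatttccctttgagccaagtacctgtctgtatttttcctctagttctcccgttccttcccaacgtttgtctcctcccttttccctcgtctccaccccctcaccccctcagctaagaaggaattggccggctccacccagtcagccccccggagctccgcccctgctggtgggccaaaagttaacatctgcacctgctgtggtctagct
Col17a1: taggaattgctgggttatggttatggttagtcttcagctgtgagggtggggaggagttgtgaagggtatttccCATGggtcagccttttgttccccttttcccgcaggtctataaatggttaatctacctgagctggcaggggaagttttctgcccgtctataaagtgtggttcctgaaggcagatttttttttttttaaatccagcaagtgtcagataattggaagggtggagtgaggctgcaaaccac

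The Krt5 half-site begins 95 bases before the start. A half-site was present in 7.13% of all 32851 windows, in 0 of the 10 windows of the 9 genes, in 1 of the 4 windows of targets that fell and in 8.96% of the 67 windows of all named clusters called lower. The CATG core was in 53.9% of all windows, in 3 of the 10 and in 3 of the 4 windows of targets that fell. It occurs at -72 in the Satb1 window and at -87 and -80 in that of Krt14. The AP-2 palindrome was in 13.7% of all windows and in 3 of the 10, with 1 match at the distal Runx1 start, 2 at the outer Trp73 start and 2 at a Satb1 start. The AP-2 palindrome was in 0 of the 4 windows of targets that fell. The RUNX core was in 14% of all windows, in 0 of the 10 and in 2 of these 4. It lies at -12 in the Grhl3 window and at -84 in that of Col17a1. A match is a run of letters and not a measured binding site, and these windows leave out distant enhancers.

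The next list held genes whose products bind, modify or control p63. None of 21 measured members passed by limma (3 lower and 2 higher at an unadjusted p under 0.05), and the median was -0.19. The ubiquitin ligase Itch, which targets p63 for degradation and is named after its values were seen, was at 8.83 ± 0.05 in the knockout and at 8.60 ± 0.05 in the wild type (adjusted p = 0.44). Its largest differences belonged to Nqo1, a quinone reductase (4.86 ± 0.21 against 6.36 ± 0.09, adjusted p = 0.073), and Mdm2, the ubiquitin ligase of p53 (11.22 ± 0.26 against 10.07 ± 0.36, adjusted p = 0.14). Among 20 measured targets shared by the p53 family, 0 passed by limma (3 lower and 5 higher at an unadjusted p under 0.05) and the median was 0.17. Perp, a desmosomal tetraspan protein reported as a target of p53 and p63, was at 7.00 ± 0.36 and 8.70 ± 0.25 (adjusted p = 0.091). Sfn, the epithelial 14-3-3 protein, was at 8.64 and 7.13 in the knockout and at 9.53 and 9.87 in the wild type (adjusted p = 0.19), with the knockout arrays far apart. Around the Trp63 locus, 10 neighbouring genes were measured, with a median of 0.17 and 0 calls by limma (1 lower and 4 higher at an unadjusted p under 0.05). Of these, Ccdc50, which encodes an adaptor of growth factor signalling, was at 11.33 and 11.18 in the knockout and at 12.09 and 11.86 in the wild type (adjusted p = 0.15).

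**Figure D3:**
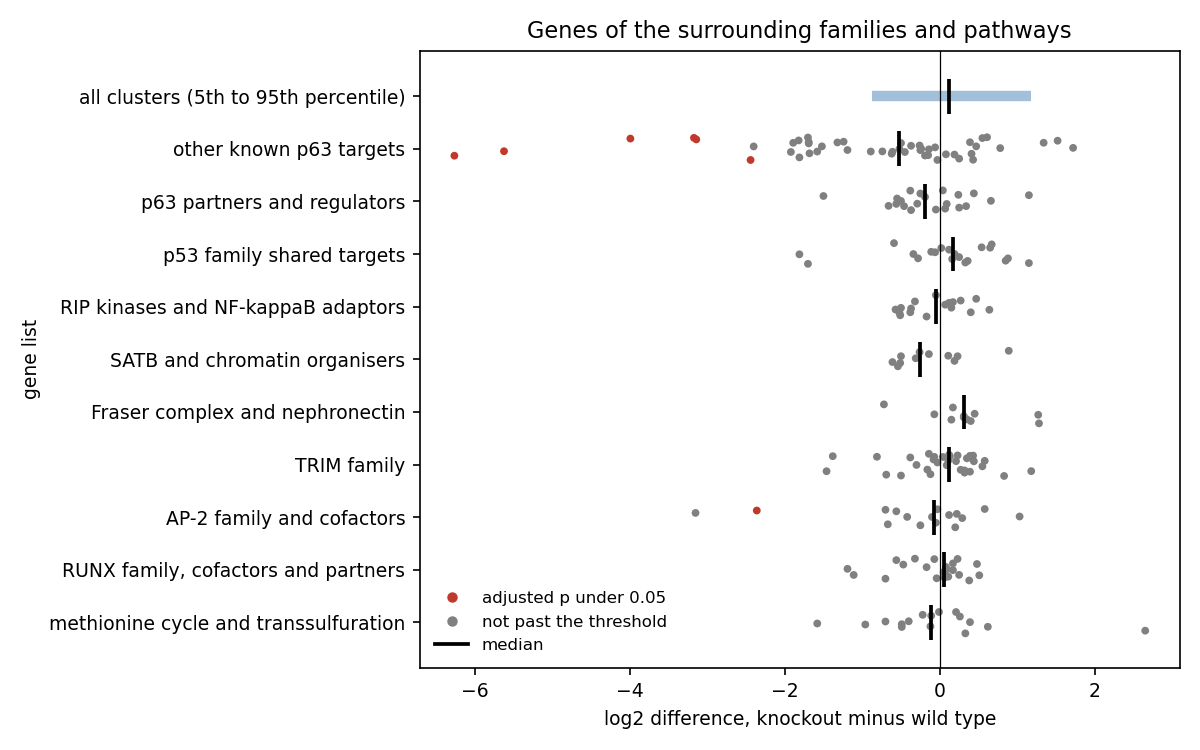
Log2 difference of each measured gene in 10 lists of related genes, 1 point a gene, with list medians as black bars and the 5th to 95th percentile of all clusters as a blue bar. Red points are past the adjusted threshold and occur in the other known p63 targets (6 genes) and in the AP-2 list (1 gene, Foxa1).

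The genes whose pattern over the 4 arrays came closest to that of Trp63 were found by the Euclidean distance between values centred on each gene's own mean, over 14851 other genes. They were Fmo5, a flavin monooxygenase (distance 0.20), Vsig2 (0.24), Ivl, the cornified envelope precursor involucrin (0.29), Snx31, a sorting nexin of umbrella cells (0.30), and Slc14a1, a urea transporter (0.41). Fmo5 was at 4.58 on both knockout arrays and at 9.09 and 8.95 on the wild-type arrays. Their differences ran from -4.68 to -4.29, and all 5 were called lower. Nearest to Trim29 were Ugt2b34, a glucuronosyltransferase (0.14), the tetraspanin Tspan13 (0.17) and Grhl3 (0.18). With 4 arrays in 2 groups, the measure mainly finds genes with a like difference and a small spread.

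**Figure D4:**
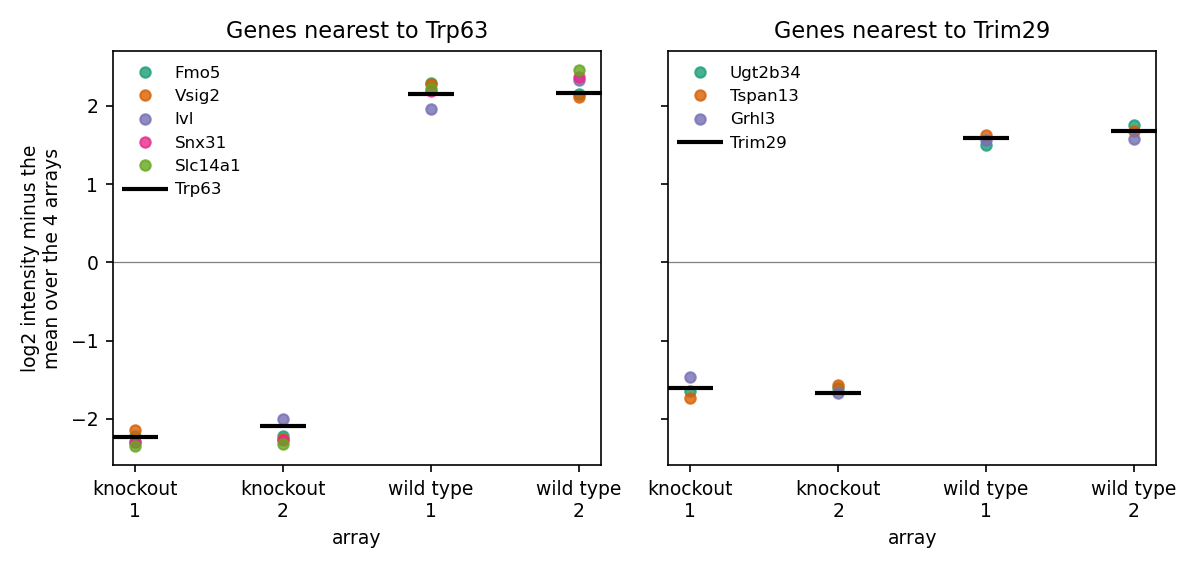
Log2 intensity minus each gene's mean over the 4 arrays, for the 5 genes nearest to Trp63 (left) and the 3 nearest to Trim29 (right), with the reference gene as a black bar. Points of each gene cluster around the bar on every array, all below 0 in the knockout and above 0 in the wild type.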

How the data were processed

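Biotin-labelled RNA of 4 samples was hybridised to Affymetrix Mouse Exon 1.0 ST arrays. The deposited table holds log2 intensities, which the authors made with Affymetrix Expression Console and Partek on build mm9, per the submitters' processing notes. No version, summarisation or normalization step is stated in those notes, and the range of the values was the basis for taking them as log2. Depth does not apply, and the number of arrays limits the precision. Symbols came from GEO's platform annotation, which gave 1 symbol to 14996 clusters, several to 1019 and none to 7317 (clusters without a single symbol were tested but not named).

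All 23332 clusters were fitted with limma 3.58.1 in R 4.3.3 (lmFit, eBayes, two-sided, Benjamini-Hochberg, no filter, no covariate, 2 residual and 2.2 prior degrees of freedom). An exact permutation test of 2 against 2 arrays cannot go below 0.33 and was not used. The fit was tested on simulated data with normal errors and variances drawn from its own fitted prior. Such data meet the model by construction, so they check the computation and not the calls made here. The 9 genes and all lists were chosen with earlier results of these data known. Besides the 9 genes, the text names the nearest patterns and, by list, up to 6 calls, or the 2 largest differences where none was called. This does not hold for the superficial, endothelial, smooth muscle, leukocyte and fibroblast lists, most of whose largest differences are not named. Other names are marked. Alternatives covered normalization, filters on dim clusters, the variance prior, a replicate block, unmoderated statistics and leaving out each array.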

Additional observations from a re-analysis of the deposited data

How the results depend on the processing

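Trp63 kept its direction in every setting tried. Its log2 difference was -4.38 after quantile and -4.27 after cyclic loess normalization, and its call held in these, after median centring, under both filters and under both other variance priors. With the replicate block its adjusted p was 0.12, and with unmoderated least squares 0.16, the difference being -4.32 in both; leaving out 1 array gave -4.39 to -4.24. The counts of lower and higher clusters, 90 and 33, became 236 and 126 without clusters below the 25th percentile, 338 and 186 without those below the median, and 189 and 114 with an intensity trend in the prior. They were 0 and 0 with the replicate block, with unmoderated statistics and without any 1 array (0 to 0), where 1 or 2 residual degrees of freedom remain; at an unadjusted p under 0.05 the block left 1530 and 2995. Of the 9 genes, 0 were called lower with the block, with unmoderated statistics and without any 1 array (0 to 0), against 2 otherwise and 3 (with Ripk4) under each filter. Of the other genes named by rule in the lists of partners and families, Nqo1 also passed under both filters (adjusted p = 0.046 and 0.028), and Perp, Npnt, Trim62, Ets1, Ets2 and Slc7a11 passed without clusters below the median (0.034 to 0.048). Of the markers of other cell types, Lcp1, of leukocytes, passed as lower under both filters (0.043 and 0.026) and Cnn1, of smooth muscle, as higher without clusters below the median (0.043). No gene of the 9 was called higher in any setting. Replicate numbers are shared between the groups, and the within-group differences correlated at 0.0188 over clusters. With 2 arrays per group, that value cannot settle whether same-numbered samples were paired. Trp73 turned to -0.0039 after cyclic loess. Runx1, at -0.02, turned to 0.01 after quantile normalization, 0.03 after cyclic loess, and leaving out 1 array gave -0.44 to 0.39. Each of the 9 genes had 1 cluster, so no other cluster could be tried.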
